A study of Homo sapiens with 18 samples.

Results

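The mRNAs of 10 enzymes of glycolysis were followed in 2 melanoma cell lines under CDK4/6 inhibition (CDK4/6i) and PRMT5 inhibition (PRMT5i). The members were listed by name as HK1, HK2, GPI, PFKP, ALDOA, TPI1, PGK1, ENO1, PKM and LDHA, and all 10 had a row among the 20705 genes of the count table. CHL1 is an established human melanoma line with wild-type BRAF and NRAS, and A375 is an established human melanoma line with mutant BRAF. The 18 poly-A RNA libraries fell into 9 groups of 2 replicates. CHL1 cells, kept in DMEM, were given DMSO alone for 72 hours (control), palbociclib, a CDK4/6 inhibitor, at 1 μM for 72 hours or 6 days, or GSK3326595, which inhibits PRMT5, at 500 nM over 72 hours. CDK4 and CDK6 are the kinases that let cells pass from G1 into S phase, and PRMT5 is an arginine methyltransferase whose substrates include histones and splicing proteins. A375 cells, kept in RPMI-1640, had the same 4 groups and a second control of 6 days. The CHL1 cells of 6 days were set against the 72-hour control, the only CHL1 control analysed here, so that time in culture and CDK4/6i cannot be told apart in that comparison.

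Glycolysis splits glucose into pyruvate in the cytosol and yields ATP and NADH on the way. In its upper part the hexokinases HK1 and HK2 trap glucose as glucose 6-phosphate, GPI turns this into fructose 6-phosphate, the platelet-type phosphofructokinase PFKP commits it to the pathway, and ALDOA and TPI1 produce triose phosphates. In its lower part PGK1 and PKM each make ATP and ENO1 forms phosphoenolpyruvate, and LDHA then reduces pyruvate to lactate, which restores NAD+. Melanoma cells, like many tumour cells, are known for fermenting glucose to lactate even with oxygen present, and HIF1A and MYC are known activators of many of these genes.

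The mRNAs of the pathway differ in base composition, and the libraries differ in the level of GC-rich relative to GC-poor mRNAs, so the sequences are shown first. The GC content of the longest annotated transcript was 41.8% for LDHA and 42.8% for PGK1, 50.5% for HK2, and from 52.7% (ENO1) to 57.3% (TPI1) for the other 7. The first 120 coding bases of the canonical transcript (GENCODE release 44 on GRCh37) are given for the member of lowest GC content, LDHA (chr11:18416107-18429972, + strand), and for a GC-rich pair, ALDOA (chr16:30075485-30081778, + strand) and TPI1 (chr12:6976283-6980112, + strand). Capitals mark G and C.
LDHA: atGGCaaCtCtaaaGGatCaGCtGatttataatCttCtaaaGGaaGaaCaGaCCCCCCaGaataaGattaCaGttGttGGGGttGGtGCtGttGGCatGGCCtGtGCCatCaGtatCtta
ALDOA: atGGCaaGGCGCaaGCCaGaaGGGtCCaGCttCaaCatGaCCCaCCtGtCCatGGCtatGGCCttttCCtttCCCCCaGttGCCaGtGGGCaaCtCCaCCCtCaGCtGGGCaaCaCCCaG
TPI1: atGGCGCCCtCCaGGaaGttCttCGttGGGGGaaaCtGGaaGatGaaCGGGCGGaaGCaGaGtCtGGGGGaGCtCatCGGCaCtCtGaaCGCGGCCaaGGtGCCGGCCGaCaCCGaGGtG
G and C made up 43.3% of this stretch in LDHA, against 59.2% in ALDOA and 63.3% in TPI1. Over the whole coding sequence the share was 44.9% in LDHA, 59.0% in ALDOA and 56.5% in TPI1.

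The promoters were searched on both strands for ACGTG and GCGTG, the 2 forms of the core element that hypoxia-inducible factors are known to bind. ACGTG also lies within CACGTG, the E-box that MYC is known to bind. Of the 24 annotated starts of the 10 members in RefSeq (GRCh38.p14), 14 held either element in the 250 bases upstream, and so did 43.2% of all 35116 promoters in the same table. At 1 start or more, 9 of the members held it, and PKM, with 1 start, did not. The members had up to 7 starts, and how many of all genes held it at 1 start or more was not counted. The upstream 250 bases are given for PGK1 (chrX:78103998-78104247, + strand) and ENO1 (chr1:8878687-8878936, - strand), 2 members with 1 annotated start each, with each element or its reverse complement in capitals.
PGK1: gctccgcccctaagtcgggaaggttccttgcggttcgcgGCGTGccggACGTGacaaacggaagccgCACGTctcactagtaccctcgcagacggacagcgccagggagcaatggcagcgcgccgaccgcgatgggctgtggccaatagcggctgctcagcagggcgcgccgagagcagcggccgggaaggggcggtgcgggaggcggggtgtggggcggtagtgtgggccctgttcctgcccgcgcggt
ENO1: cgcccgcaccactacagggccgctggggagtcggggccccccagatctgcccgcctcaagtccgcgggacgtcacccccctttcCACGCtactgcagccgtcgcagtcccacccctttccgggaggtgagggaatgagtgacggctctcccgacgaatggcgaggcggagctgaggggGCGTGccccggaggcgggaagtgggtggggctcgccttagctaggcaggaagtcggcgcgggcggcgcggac
PGK1 held ACGTG at 2 places and GCGTG at 1, and ENO1 held GCGTG at 2. A match describes these letters only and is not a bound site.

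The libraries held 16213475 to 37424081 counts each. The level of an mRNA is given as CPM, its counts relative to the size of the library, after scaling the libraries by the trimmed mean of M-values (TMM). Across genes, the CHL1 PRMT5i libraries and the A375 controls of 6 days stood apart in GC content. The measure was the median deviation in log2 CPM of the top decile of genes by GC content, minus that of the bottom decile. It used 12875 genes in CHL1 and 13444 in A375, with scarce genes of each line left out. It was -2.89 and -2.22 in CHL1 PRMT5i and -2.55 and -1.26 in the A375 controls of 6 days. In the other 14 libraries it lay between -0.22 and 0.56. Counts of called genes, and values for part of the genes, are given after a correction for this trend beside the test results of those groups. The shares of counts and of isozymes were not corrected. The cause of the trend was not tested. The 6 A375 libraries of 72 hours are named by another scheme than the other 12 libraries, so in A375 the time point and the library set cannot be told apart. The 5 melanocyte genes with a row (MITF, PMEL, TYR, DCT and S100B) summed to 151 to 281 CPM in CHL1 and 113 to 263 CPM in A375. The keratinocyte genes KRT5 and KRT14 summed to at most 0.477 CPM in CHL1 and 10.8 CPM in A375, and EPCAM was at most 2.59 CPM. The leukocyte gene PTPRC stood at 7.41 to 16.8 CPM in CHL1 and at most 0.588 CPM in A375, and it was higher than in the control by 1.15 ± 0.20 (log2, SE) in CHL1 CDK4/6i of 6 days and by 1.00 ± 0.20 in CHL1 PRMT5i, where the GC correction took it to -0.18 and out of the calls. Its part in the results below was not tested.

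In the untreated cells ENO1 and PKM, of the lower part of the pathway, carried the most mRNA per transcript length. In CPM per kb of canonical transcript, ENO1 stood first in the CHL1 control (751 ± 79.3, SD, n = 2) and in the A375 control of 72 hours (1567 ± 237), followed in both by PKM (458 ± 34.2 and 1139 ± 160) and ALDOA (361 ± 31.1 and 784 ± 104). PGK1, also of the lower part, stood at 101 ± 8.39 and 161 ± 27.7, below ALDOA and TPI1 of the upper part. The hexokinases and GPI came last. In CHL1 the mean level per kb was 31.5 ± 1.60 for HK1, 21.8 ± 2.21 for HK2 and 16.9 ± 0.736 for GPI, and in A375 it was 66.5 ± 6.91 for GPI, 54.6 ± 5.44 for HK1 and 35.9 ± 3.06 for HK2. Most neighbours in these orders had libraries that did not overlap. PFKP and HK1 overlapped in CHL1, and TPI1 and LDHA overlapped in A375.

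All 10 mRNAs were lower in the CHL1 control than in the A375 control of 72 hours by edgeR's quasi-likelihood test at an adjusted p below 0.05, where 58.9% of all genes differed in either direction and 29.6% were lower in CHL1. The widest gaps lay in the upper part of the pathway. GPI was at 72.0 and 67.8 CPM in CHL1 and at 254 and 294 CPM in A375, a 3.92-fold difference (log2 -1.97 ± 0.24, SE). PFKP was at 80.6 and 93.8 CPM against 289.8 and 326 CPM, a 3.53-fold difference (log2 -1.82 ± 0.22). The libraries of the lines did not overlap for these or for any other member, and CHL1 lay below A375 without overlap for 42.5% of all genes. TPI1, PKM, ALDOA and ENO1 were lower in CHL1 by 2.77-, 2.49-, 2.18- and 2.09-fold, and HK1, LDHA, HK2 and PGK1 by 1.73-, 1.71-, 1.65- and 1.59-fold. The median member stood at -1.09 on the log2 scale, against -0.02 over all genes.

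The order between the lines depended on which A375 control was used. Set against the A375 control of 6 days, 1 member, GPI, passed the test, where 61% of all genes did, and ALDOA, ENO1, HK2, LDHA and PGK1 stood 0.37, 0.25, 0.24, 0.06 and 0.29 higher in CHL1 on the log2 scale. The pathway took 0.477% and 0.430% of all counts in the CHL1 controls, 1.00% and 1.16% in the A375 controls of 72 hours, and 0.327% and 0.576% in those of 6 days. The A375 controls of 6 days thus lay near CHL1 and apart from the A375 controls of 72 hours, and they also carried the GC trend described above. The CHL1 libraries and the A375 controls of 6 days are named by one scheme and the A375 controls of 72 hours by another, so that line and library set cannot be told apart in the comparison of the 72-hour controls. The medium differed between the lines as well and cannot be told apart from them. With the GC correction, all 10 members were lower in CHL1 than in the 72-hour A375 control, as were 33.3% of the genes.

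**Figure D1:**
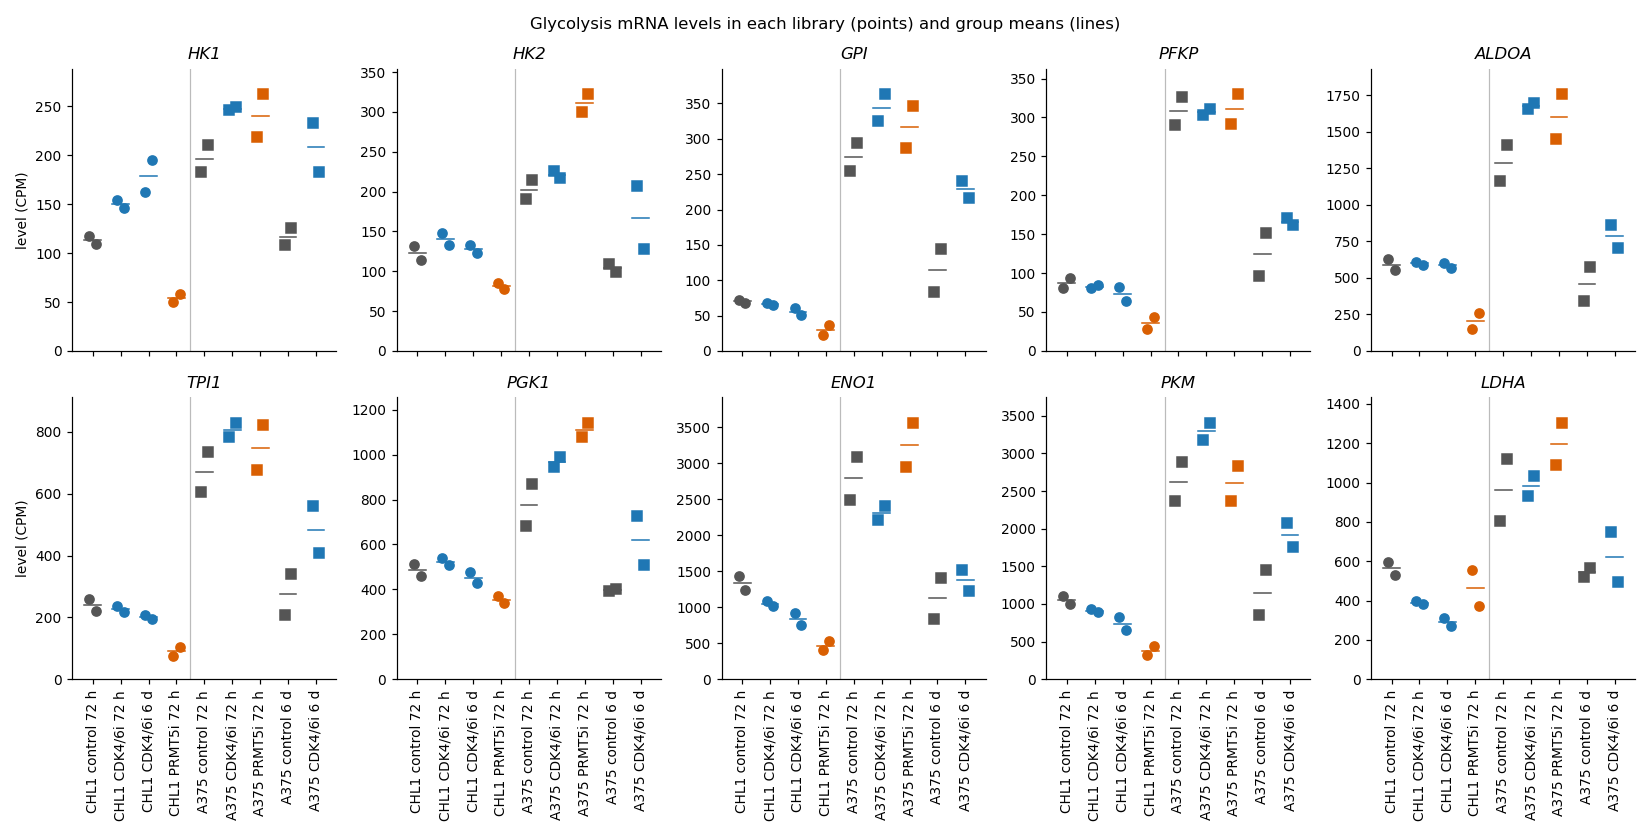
Level of each glycolysis mRNA in CPM (vertical axes, starting at 0, with a scale of their own for each gene) in the 18 libraries. Points are libraries, lines are group means, circles are CHL1 and squares A375, with controls in grey, CDK4/6i in blue and PRMT5i in orange. The CHL1 PRMT5i points lie below the CHL1 control points for all genes but LDHA, and the A375 controls of 6 days lie below the A375 controls of 72 hours.

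PRMT5i lowered 9 of the 10 mRNAs in CHL1, where 54.0% of all genes were DEGs (differentially expressed genes, adjusted p below 0.05) and 27.6% were down-regulated. The largest falls were those of ALDOA, ENO1 and PKM, the 3 most abundant of these mRNAs per kb, and of TPI1. The exception was LDHA, which makes lactate. The median member stood at -1.23 on the log2 scale, against 0 over all genes. The treatments of CHL1 share one control, as do the 72-hour treatments of A375. Since the RNA of whole cultures was measured, fewer cells with an mRNA and less of it per cell cannot be told apart.

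ALDOA was at 627 and 555 CPM in the control and 149.6 and 257 CPM under PRMT5i, a 2.87-fold fall (log2 -1.52 ± 0.22, edgeR adjusted p = 0.000222). ENO1 fell from 1437 and 1237 CPM to 403 and 531 CPM, which is 2.82-fold (log2 -1.50 ± 0.19). PKM fell from 1111 and 999.6 CPM to 317 and 436 CPM, which is 2.77-fold (log2 -1.47 ± 0.19). In all 3 the treated libraries lay far under both controls. The SD between replicates under PRMT5i was above that of the control for ALDOA (75.7 against 50.9 CPM). It was close to it for PKM (84.2 against 78.7 CPM) and below it for ENO1 (90.2 against 141 CPM). TPI1 fell from 261 and 222 CPM to 75.7 and 106 CPM (2.63-fold).

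Of the upper enzymes, PFKP fell from 80.6 and 93.8 CPM to 27.9 and 43.8 CPM (2.40-fold), GPI from 72.0 and 67.8 CPM to 23.1 and 36.7 CPM (2.31-fold), and HK1, the hexokinase found in most tissues, from 117 and 109 CPM to 50.2 and 58.2 CPM (2.06-fold). HK2, the inducible hexokinase of many tumours, fell less, from 132 and 114 CPM to 85.7 and 77.7 CPM (1.48-fold, edgeR adjusted p = 0.00819). PGK1 fell from 515 and 458 CPM to 369.7 and 339.8 CPM (1.35-fold, edgeR adjusted p = 0.0292). LDHA was at 596 and 532 CPM in the control and at 555 and 371 CPM under PRMT5i, so that the groups overlapped (log2 -0.27 ± 0.19, edgeR adjusted p = 0.265). Groups did not overlap for the 9 others, and they did not overlap downward for 39.6% of all genes.

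**Figure D2:**
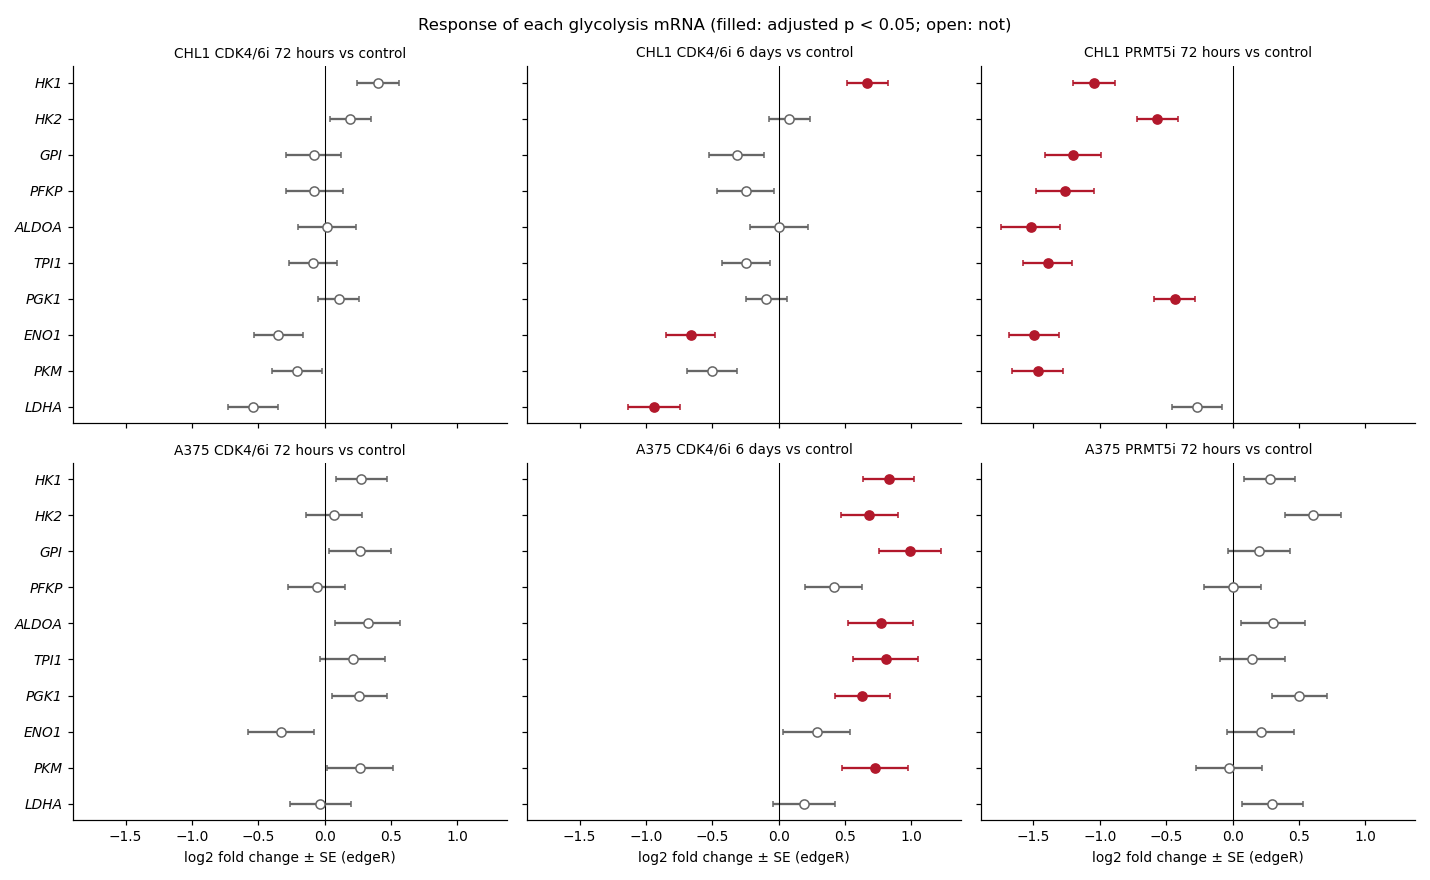
Log2 fold change of each glycolysis mRNA (horizontal axis, with its SE from edgeR) in the 6 comparisons of treated with control cells. Filled points had an adjusted p below 0.05 over all 20705 genes: 9 in CHL1 PRMT5i, 3 in CHL1 CDK4/6i of 6 days and 7 in A375 CDK4/6i of 6 days.

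LDHA, PGK1 and HK2, the members poorest in GC, had the smallest changes. After the GC correction, among the 16356 genes with a known GC content, 9 members were again down-regulated, but a different 9. LDHA was now among them (log2 -0.84 ± 0.17) and HK2 was not (-0.22 ± 0.14). PGK1 stood at -0.90 ± 0.13 and ENO1 at -0.95 ± 0.16, while TPI1 shrank to -0.47 ± 0.13, HK1 to -0.47 ± 0.12 and PFKP to -0.57 ± 0.17. With the correction 30.6% of the genes were called and 15.9% were down-regulated, and the median member stood at -0.74. The 10 members took 0.164% and 0.177% of the counts of the PRMT5i libraries, against 0.477% and 0.430% in the control.

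**Figure D3:**
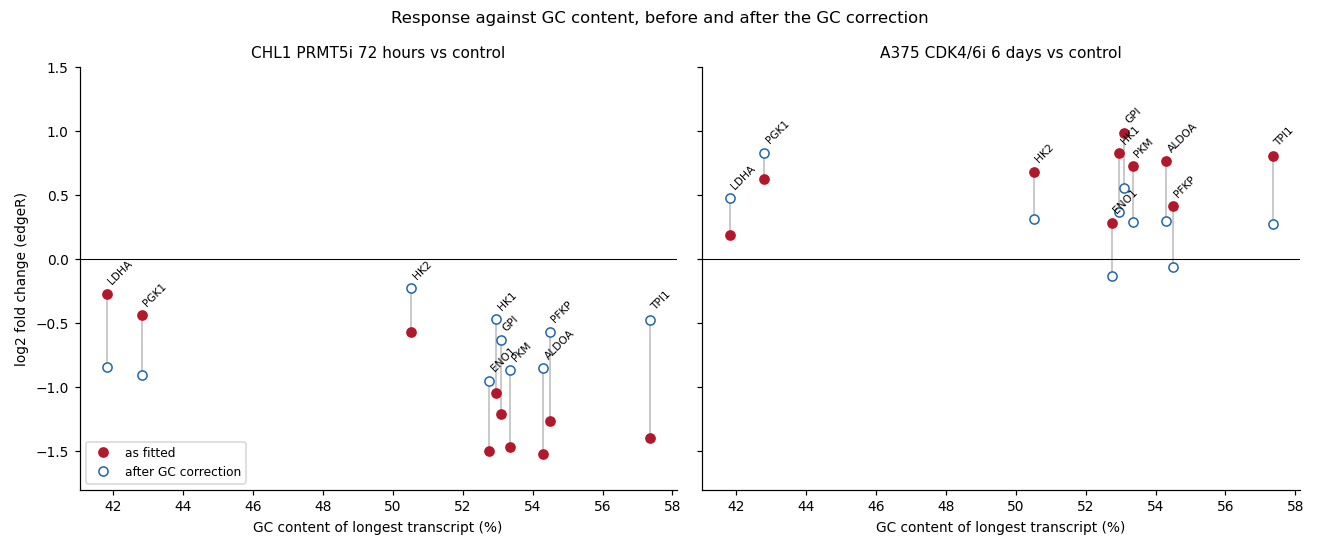
Log2 fold change (vertical axis) against the GC content of the longest transcript in percent (horizontal axis) for the 10 members in CHL1 PRMT5i and A375 CDK4/6i of 6 days, as fitted (filled) and after the GC correction (open), with a grey line joining the values of a gene. In CHL1 PRMT5i the correction moved LDHA from -0.27 to -0.84 and TPI1 from -1.39 to -0.47, and in A375 it moved TPI1 from 0.81 to 0.28 and LDHA from 0.19 to 0.48.

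**Figure D4:**
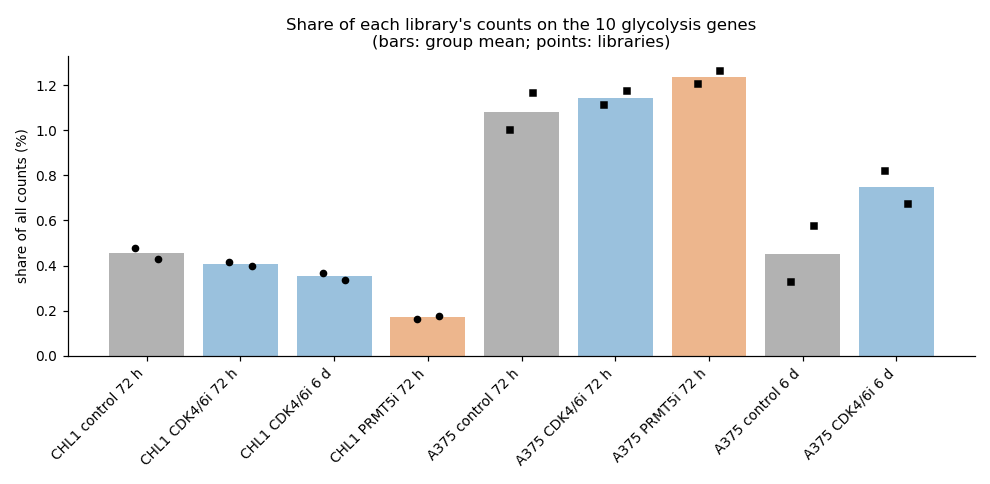
Share of each library's counts that fell on the 10 glycolysis genes, in percent (vertical axis, starting at 0). Bars are group means (grey for controls, blue for CDK4/6i, orange for PRMT5i) and black points are libraries. The share was lowest in the CHL1 PRMT5i libraries (0.164% and 0.177%) and highest in those of A375 PRMT5i (1.21% and 1.27%).

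In A375, PRMT5i changed none of the 10 mRNAs by edgeR at an adjusted p below 0.05, where 2.61% of all genes were DEGs. DESeq2 also called 0, and 2 members, HK2 and PGK1, had an unadjusted p below 0.05 in edgeR. The share of all genes at an unadjusted p below 0.05 was not counted, here or in the comparisons below. HK2 was at 190.1 and 214 CPM in the control and 299.8 and 322 CPM under PRMT5i, without overlap (log2 0.61 ± 0.21, edgeR adjusted p = 0.154). PGK1 was at 681 and 870.1 CPM against 1077 and 1143 CPM (log2 0.50 ± 0.21, edgeR adjusted p = 0.236). With the replicate number as a block 5 members were called, all upward, where 29.5% of all genes were called: ALDOA, HK1, HK2, LDHA and PGK1. Without it the other 8 lay between -0.03 (PKM) and 0.30 (ALDOA). The approximate 95% intervals of the 10 members together ran from -0.51 to 1.02. The fitted falls in CHL1, before the GC correction, lay outside that range for all members but PGK1 and LDHA.

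The response to PRMT5i was then compared between the lines with an interaction term. It was lower in CHL1 than in A375 for 9 members, all but LDHA, where 40.9% of all genes differed and 22.1% were lower in CHL1. The difference was -1.86 ± 0.35 (log2) for ALDOA, -1.74 ± 0.33 for ENO1 and -1.58 ± 0.32 for TPI1. LDHA differed by -0.60 ± 0.32 (edgeR adjusted p = 0.147). After the GC correction 7 members differed, where 9.95% of genes were lower in CHL1, among them LDHA (-1.20 ± 0.34) and PGK1 (-1.45 ± 0.26), and PFKP, PKM and TPI1 did not pass the test.

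CDK4/6i in CHL1 left the pathway without a called member after 72 hours, where 4.98% of all genes were DEGs, and changed 3 members after 6 days, where 16.6% were (8.83% up-regulated and 7.8% down-regulated). At 72 hours both edgeR and DESeq2 called 0, and HK1 and LDHA had an unadjusted p below 0.05 in edgeR. After 6 days HK1 was higher and ENO1 and LDHA were lower, while HK2, the other hexokinase, did not pass the test. HK1 was at 117 and 109 CPM in the control, at 154 and 146 CPM after 72 hours and at 162 and 195 CPM after 6 days, a 1.59-fold rise at 6 days (log2 0.67 ± 0.16, edgeR adjusted p = 0.0139).

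LDHA was at 596 and 532 CPM in the control, 396 and 381 CPM after 72 hours and 311 and 272 CPM after 6 days, a 1.92-fold fall (log2 -0.94 ± 0.19, edgeR adjusted p = 0.00768). ENO1 was at 1437 and 1237 CPM in the control, 1089.9 and 1013 CPM after 72 hours and 919 and 753 CPM after 6 days, a 1.58-fold fall (log2 -0.66 ± 0.18, edgeR adjusted p = 0.0294). For both genes, and for PKM, each 6-day library lay below each 72-hour library, and these below each control. HK1 had the reverse order. How many of all genes had either order was not counted, and none of these members passed the direct test of 6 days against 72 hours. PKM, at 1111 and 999.6 CPM in the control and 822 and 655 CPM after 6 days, did not pass the test (log2 -0.50 ± 0.19, edgeR adjusted p = 0.0930). The 6 others lay between -0.32 (GPI) and 0.08 (HK2).

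The calls depended on single libraries, over all genes as well. Without the first or the second CHL1 control library 0 members were called at 6 days, where 5.4% and 3.05% of all genes were. Without the second CDK4/6i library of 6 days 1 member was, LDHA, where 11.1% of genes were. With the GC correction 5 members were called, HK1 upward (0.60 ± 0.12) and ENO1, LDHA, PKM and TPI1 downward, with -0.72 ± 0.16 for ENO1 and -0.91 ± 0.17 for LDHA. In this comparison 28.8% of genes were called with the correction. The direct comparison of 6 days with 72 hours called 0 members in edgeR and DESeq2, with 0 members at an unadjusted p below 0.05, where 0.0145% of all genes differed. Its values ran from -0.40 (LDHA) to 0.27 (HK1), and 9 of the 10 were below 0.

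In A375, CDK4/6i changed none of the members after 72 hours, where 13.3% of all genes were DEGs, and raised 7 after 6 days, where 43.1% were and 21.8% were up-regulated. At 72 hours edgeR and DESeq2 each called 0 members, and 0 had an unadjusted p below 0.05. With the replicate number as a block, in the 6 libraries of 72 hours, 6 members were called, where 42.3% of all genes were: ALDOA, GPI, HK1, PGK1 and PKM upward and ENO1 downward. In the fit without the block the differences lay between -0.33 (ENO1) and 0.32 (ALDOA) on the log2 scale. For HK1, HK2, GPI, ALDOA, TPI1, PGK1 and PKM both treated libraries lay above both controls, as they did for 37.1% of all genes.

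After 6 days the risers came from both parts of the pathway. GPI was at 84.0 and 144 CPM in the control and 240.3 and 216 CPM under CDK4/6i, a 1.99-fold rise (log2 0.99 ± 0.24, edgeR adjusted p = 0.00357). HK1 was at 108 and 126 CPM against 233 and 183 CPM, a 1.78-fold rise (log2 0.83 ± 0.19, edgeR adjusted p = 0.00304). TPI1 was at 209 and 340.3 CPM against 559 and 409 CPM (1.75-fold), ALDOA at 343 and 572 CPM against 865 and 705 CPM (1.70-fold), and PKM at 849 and 1453 CPM against 2075 and 1763 CPM (1.66-fold). For GPI, TPI1, ALDOA and PKM the controls stood wide apart, the first well below the second, and for HK1 they lay close together. Both treated libraries lay above both controls for 8 members, all but ENO1 and LDHA, as they did for 37.6% of all genes. HK2, at 109 and 99.0 CPM against 207 and 127 CPM, rose 1.61-fold, and PGK1, at 394 and 403 CPM against 726 and 510.1 CPM, rose 1.55-fold. The median member stood at 0.71, against 0.10 over all genes.

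PFKP, ENO1 and LDHA did not pass the test at 6 days. PFKP was at 95.8 and 152 CPM in the control and 170.5 and 162 CPM under CDK4/6i (log2 0.41 ± 0.21), ENO1 at 835 and 1412 CPM against 1524 and 1233 CPM (0.29 ± 0.25), and LDHA at 519 and 568 CPM against 751 and 492 CPM (0.19 ± 0.23). The groups overlapped for ENO1 and LDHA. Corrected for GC, LDHA stood at 0.48 ± 0.25 and ENO1 at -0.13 ± 0.21, and HK1 shrank to 0.37 ± 0.16 and was no longer called.

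The rise in A375 depended on the control and on single libraries. Against the A375 control of 72 hours 4 members were called, all downward (ALDOA, ENO1, LDHA and PFKP), where 31.2% of all genes were. In that comparison 9 of the 10 changed sign: ENO1, at -1.06 on the log2 scale, PFKP at -0.93, ALDOA at -0.76, LDHA at -0.68, TPI1 at -0.51, PKM at -0.50, PGK1 at -0.37, HK2 at -0.32 and GPI at -0.31. That control belongs to the other library set and the other time point. Without the first A375 control library of 6 days, the one with the stronger GC trend (-2.55), 3 members were called (34.3% of all genes), and without the first CDK4/6i library 2 were (29.4%). With the GC correction GPI (0.56 ± 0.17) and PGK1 (0.83 ± 0.21) were called, where 36.6% of genes were and 17.4% rose, and TPI1, ALDOA and PKM shrank to 0.28 ± 0.19, 0.30 ± 0.19 and 0.29 ± 0.20. The response of 6 days minus that of 72 hours called 0 members by edgeR and by DESeq2, with GPI at an unadjusted p below 0.05, where 1.08% of genes differed, and without the second A375 control of 6 days it called 7, where 33.9% of genes were called. The CDK4/6i response at 72 hours did not differ between the lines for any member by edgeR or DESeq2, with 0 at an unadjusted p below 0.05, where 0.642% of genes did. Its values ran from -0.56 (LDHA) to 0.07 (HK1).

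The shares of LDHA and PFKP among their isozymes differed between the lines. Some treated groups lay outside their controls, and others overlapped them, as the PFKP share did in CHL1 PRMT5i (30.3% and 34.8%). LDHB, the heart-type subunit of lactate dehydrogenase, outweighed LDHA in CHL1: LDHA made up 10.8% and 10.2% of the summed CPM per kb of LDHA and LDHB in the CHL1 controls, against 41.0% and 43.8% in the A375 controls of 72 hours and 31.4% and 36.9% in those of 6 days. The lines did not overlap in this share in any group. In CHL1 it was 8.13% and 7.66% after 72 hours of CDK4/6i and 7.18% and 8.57% after 6 days. PFKP made up 29.6% and 34.8% of the phosphofructokinase mRNA in the CHL1 controls, the rest being the liver and muscle types PFKL and PFKM, and 59.5% and 59.8% in the A375 controls of 72 hours. In A375 the PFKP share was 54.8% and 55.1% after 72 hours of CDK4/6i, below both controls of that time. It was 46.6% and 51.6% after 6 days, below both controls of 6 days (52.6% and 59.6%), which carried the GC trend. The GC content was 64.1% for PFKL, 54.5% for PFKP and 51.5% for PFKM, and its part in the share was not tested.

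HK1 made up 58.2% and 59.9% of HK1 plus HK2 in the CHL1 controls and 60.0% and 60.5% in the A375 controls of 72 hours. CDK4/6i took it to 61.8% and 63.1% in CHL1 and 63.0% and 64.2% in A375 after 72 hours, and to 65.5% and 71.1% in CHL1 after 6 days. PRMT5i took it to 47.8% and 53.9% in CHL1 and 53.3% and 56.0% in A375. In A375 at 6 days the controls (60.8% and 66.5%) and the CDK4/6i libraries (63.7% and 69.2%) overlapped. The HK1 share thus lay above both 72-hour controls of its line in the 4 CHL1 and the 2 72-hour A375 libraries of CDK4/6i and below them in the 4 PRMT5i libraries. ENO1 made up 97.4% to 99.95% of ENO1 plus the neuronal ENO2 in the 18 libraries. The splice forms of PKM were not separated in the counts. These shares were neither tested nor corrected for GC.

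**Figure D5:**
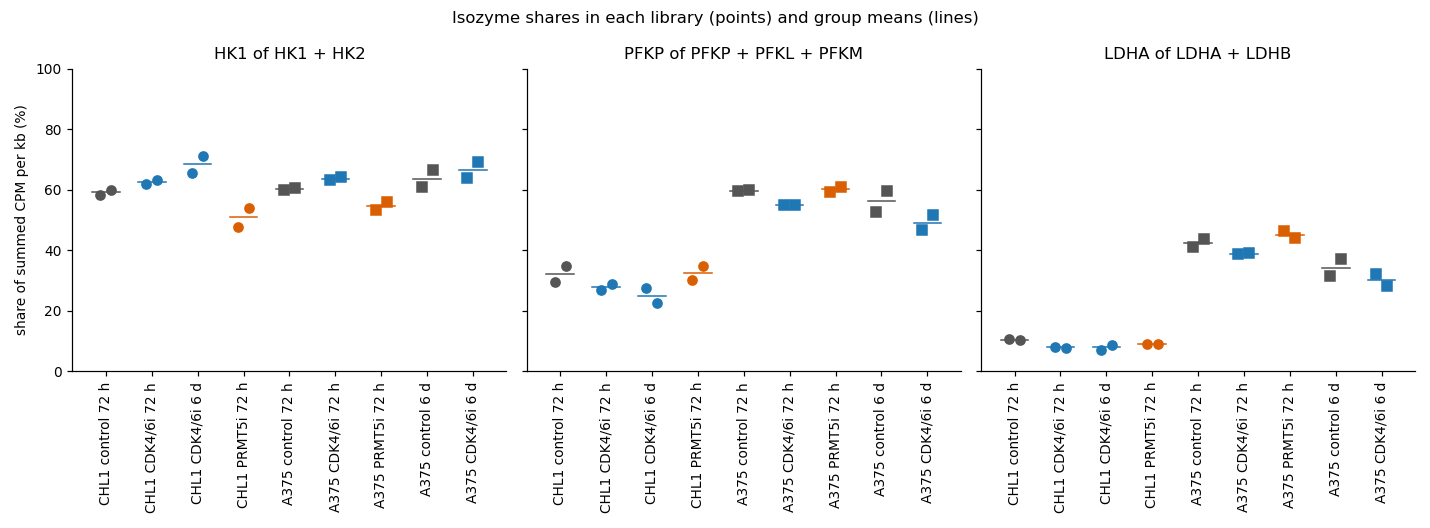
Share of HK1, PFKP and LDHA in the summed CPM per kb of their isozymes, in percent (vertical axis, 0 to 100), in the 18 libraries. Points are libraries and lines group means, circles are CHL1 and squares A375, with controls in grey, CDK4/6i in blue and PRMT5i in orange. LDHA made up 10.8% and 10.2% in the CHL1 controls and 41.0% and 43.8% in the A375 controls of 72 hours.

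HKDC1 encodes a further, hexokinase-like protein and was raised by CDK4/6i. It lies 2431 bases before HK1 on chromosome 10, on the same strand. HKDC1 was scarce, at 0.622 and 0.390 CPM in the CHL1 controls (18 and 11 counts), 1.83 and 2.01 CPM after 72 hours and 3.20 and 6.06 CPM after 6 days, rises of 1.91 ± 0.39 and 3.18 ± 0.38 on the log2 scale (SE). In A375 it was at 2.31 and 2.50 CPM in the 6-day control and 9.56 and 7.43 CPM after 6 days of CDK4/6i (log2 1.81 ± 0.26), and after 72 hours it did not pass the test (-0.31 ± 0.27). Of the 14 other glycolysis genes with a row, HKDC1 was the 1 called in CHL1 at 72 hours and at 6 days, and 5 rose and 0 fell in A375 at 6 days, GAPDHS (1.41 ± 0.45) and PFKM (1.02 ± 0.18) among them. Corrected for GC, 2 rose there, HKDC1 (1.34) and PFKM (0.62), and GAPDHS (0.85) was no longer called. PRMT5i lowered 7 of the 14 and raised 2 in CHL1, with ENO2 at -2.64 ± 0.50, PFKL at -1.84 ± 0.24 and GAPDH, the dehydrogenase of the pathway, at -1.54 ± 0.18. The median of the list was -0.59 on the log2 scale there, and after the correction 5 fell and 1 rose, with ENO2 at -1.88, PFKL at -0.62 and GAPDH at -0.59. In A375 0 were called at 72 hours of CDK4/6i or under PRMT5i. ALDOC, PGK2, PGAM2 and PKLR were not analysed here. The counts in this and the following lists stand beside these shares of all genes called. In CHL1 they were 4.98% and 16.6% at 72 hours and 6 days of CDK4/6i and 54.0% under PRMT5i. In A375 they were 13.3%, 43.1% and 2.61%. After the correction 30.6% were called in CHL1 PRMT5i and 36.6% in A375 at 6 days.

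Among 15 carriers of glucose, lactate and pyruvate, the main glucose importer SLC2A1 rose in CHL1 under CDK4/6i, by 1.49 ± 0.23 (log2) after 72 hours and 1.15 ± 0.23 after 6 days. Of the list, 2 rose and 0 fell at 72 hours, SLC2A10 (0.79 ± 0.17) being the other, and 5 rose and 1 fell at 6 days, with MPC1, a subunit of the mitochondrial pyruvate carrier, at 1.17 ± 0.16. In CHL1 under PRMT5i 5 rose and 6 fell, among them MPC2 (1.34 ± 0.19), BSG, the chaperone of lactate carriers (-1.40 ± 0.24), and SLC2A6 (-1.82 ± 0.25), and after the correction 3 rose and 2 fell, with MPC2 at 0.85 and SLC2A6 at -0.60, while BSG (-0.25) was no longer called. In A375 1 rose and 1 fell at 72 hours of CDK4/6i, 2 rose and 2 fell at 6 days, with SLC16A7 at -1.60 ± 0.18 and BSG at 1.11 ± 0.20, and 0 were called under PRMT5i. After the correction 2 rose and 3 fell at 6 days, with SLC16A7 at -0.49 and BSG at 0.55.

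Of 11 enzymes that set the flow into and out of glycolysis, PDK2, a kinase that shuts off pyruvate dehydrogenase, rose by 1.11 ± 0.30 (log2) in CHL1 at 6 days of CDK4/6i and by 0.68 ± 0.20 and 0.85 ± 0.20 in A375 at 72 hours and 6 days. PFKFB4, which makes the activator of phosphofructokinase, rose in A375 by 0.77 ± 0.20 at 72 hours and 1.95 ± 0.20 at 6 days, and fell in CHL1 under PRMT5i by 1.09 ± 0.25. TIGAR, which lowers the same activator and is listed as C12orf5, rose under PRMT5i in A375 (1.03 ± 0.19) and CHL1 (1.05 ± 0.17) and under CDK4/6i at 72 hours in A375 (0.77 ± 0.19). With the GC correction PDK2 in A375 at 6 days shrank to 0.26 and was no longer called. In the same way the fall of PFKFB4 and the rise of TIGAR in CHL1 shrank to -0.27 and 0.40 and were no longer called, while TIGAR stood at 1.09 in A375. In this list 0 were called in CHL1 at 72 hours of CDK4/6i, 2 rose at 6 days, 5 rose and 3 fell under PRMT5i, and in A375 3 rose at 72 hours, 4 rose and 2 fell at 6 days, and 1 rose under PRMT5i. The correction left 1 rise and 2 falls in CHL1 PRMT5i and 4 rises and 1 fall in A375 at 6 days, with PFKFB4 at 1.35.

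Among 14 regulators, TXNIP and its relative ARRDC4, which restrain glucose uptake and are known targets of the glucose sensor MLXIP, were the most responsive. TXNIP rose under CDK4/6i by 1.09 ± 0.27 and 2.01 ± 0.28 (log2) in CHL1 at 72 hours and 6 days and by 1.79 ± 0.29 and 1.07 ± 0.29 in A375, and under PRMT5i by 1.15 ± 0.28 in A375 and by 0.87 ± 0.27 in CHL1, where the GC correction took it to 0.51 and out of the calls. ARRDC4 rose by 0.95 ± 0.21 and 1.57 ± 0.21 in CHL1 under CDK4/6i, by 1.82 ± 0.21 in CHL1 under PRMT5i and by 2.12 ± 0.42 in A375 at 72 hours of CDK4/6i. In CHL1 2 of the list rose at each time of CDK4/6i, and 4 rose and 7 fell under PRMT5i, with MLXIP at -1.28 ± 0.18. After the correction 2 rose and 4 fell there, with ARRDC4 at 1.42 and MLXIP at -0.32. In A375 3 rose at 72 hours, 5 rose and 2 fell at 6 days, with HIF1A at -1.38 ± 0.28, which the GC correction took to -0.48 and out of the calls, and 1 rose under PRMT5i. The corrected count at 6 days was 2 up and 1 down, with TXNIP at 1.22.

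The 15 hypoxia targets outside the pathway did not move as a block. Beside the counts below, 54.0% of all genes were called in CHL1 PRMT5i and 43.1% in A375 at 6 days. In CHL1 under CDK4/6i DDIT4 rose by 1.25 ± 0.31 (log2) at 72 hours, the 1 call of that list, and 4 rose at 6 days, with DDIT4 at 1.26 ± 0.31 and BNIP3L at 0.72 ± 0.15, and under PRMT5i 5 rose and 3 fell. In A375 1 rose at 72 hours of CDK4/6i, 3 rose and 2 fell at 6 days, with NDRG1 at 1.49 ± 0.19 and BNIP3L at -0.91 ± 0.26, and 1 rose under PRMT5i, P4HA2 (0.79 ± 0.19). Corrected for GC, 2 rose and 1 fell in CHL1 PRMT5i. In A375 at 6 days 3 rose and 2 fell after the correction, with NDRG1 at 1.07, while BNIP3L (-0.09) was no longer called. The uncorrected median of the list lay between -0.13 and 0.34 on the log2 scale in the 6 comparisons.

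The pentose phosphate pathway and the synthesis of serine branch off glycolysis. PRMT5i in CHL1 lowered 5 and raised 2 of the 7 pentose phosphate genes, with TALDO1, the transaldolase of that pathway, at -1.90 ± 0.19 (log2), and after the correction 5 fell and 1 rose, with TALDO1 at -1.19. It also lowered 4 of the 5 serine genes, SHMT2 (-1.34 ± 0.21) and PHGDH (-1.26 ± 0.26) among them, and again 4 after the correction, with SHMT2 at -0.45 and PHGDH at -0.77. In A375 PHGDH, which draws 3-phosphoglycerate from glycolysis, fell by 1.12 ± 0.20 at 72 hours of CDK4/6i, and PSAT1 by 0.60 ± 0.18. In CHL1 CDK4/6i changed 0 genes of either list at either time. With the GC correction 4 pentose phosphate genes and 1 serine gene fell at 6 days, where 28.8% of genes were called. In A375 1 pentose phosphate gene rose and 1 fell at 72 hours of CDK4/6i, 2 rose and 1 fell at 6 days, 2 serine genes rose at 6 days, and 0 of either list were called under PRMT5i. Corrected for GC, 4 serine genes fell in A375 at 72 hours of CDK4/6i, and 1 pentose phosphate gene rose and 1 fell, where 23.4% of genes were called. In the corrected fit of 6 days 2 pentose phosphate genes fell and 1 serine gene rose. In that of PRMT5i 1 serine gene fell, where 7.84% of genes were called. The remaining lists concern glucose synthesis, glycogen and the entry of pyruvate into the mitochondrion. Of 4 gluconeogenesis genes with a row, PCK1, the first committed enzyme of glucose synthesis from oxaloacetate, rose by 2.71 ± 0.22 at 72 hours and 2.25 ± 0.22 at 6 days of CDK4/6i in CHL1, the 1 call of the list at 72 hours and 1 of 2 at 6 days. In CHL1 under PRMT5i 1 of them rose and 2 fell, and in A375 1 rose at 72 hours and 2 at 6 days of CDK4/6i, and 0 were called under PRMT5i. After the correction 1 rose and 1 fell in CHL1 PRMT5i, and in A375 0 were called at 72 hours and 1 fell at 6 days. Of 14 genes of glycogen and hexosamine metabolism, 7 rose and 4 fell in CHL1 under PRMT5i and 3 rose and 4 fell in A375 at 6 days of CDK4/6i, with GYS1, a glycogen synthase, at -1.61 ± 0.20 in the former and 1.11 ± 0.22 in the latter. The corrected counts were 3 up and 4 down in CHL1, where the median of the list turned from 0.43 to -0.21, and 2 up and 2 down in A375, with GYS1 at -0.61 and 0.55. CDK4/6i called 0 of that list in CHL1 at 72 hours, raised 2 at 6 days and raised 1 in A375 at 72 hours, and PRMT5i called 0 in A375. Of 5 pyruvate dehydrogenase genes, 3 rose and 1 fell in CHL1 under PRMT5i, with PDHX at 1.18 ± 0.21, and 3 fell in A375 at 6 days, with DLAT at -1.19 ± 0.17, and 0 were called in the other 4 comparisons. After the correction 1 rose and 2 fell in the former, with PDHX at 0.78, and 2 fell in the latter, with DLAT at -0.77.

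The genes whose responses were most like those of the median member were PPP2R1A, ASNA1, CHMP1A, COLGALT1 and STOML2, chosen by the smallest root mean square difference over the 6 log2 fold changes. The difference was 0.06 for PPP2R1A and 0.08 for STOML2, against a median of 0.78 over 8902 genes with at least 10 CPM in each line. PPP2R1A, the scaffold of protein phosphatase 2A, stood at -1.30 in CHL1 PRMT5i and 0.74 in A375 CDK4/6i of 6 days, where the median member stood at -1.23 and 0.71. The GC content of these 5 genes ran from 53.6% (PPP2R1A) to 62.8% (CHMP1A), and that of the median member was 53.0%.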

How the data were processed

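Poly-A RNA of 18 libraries was sequenced paired end on a NextSeq 500. Per the labels and the study's methods, the authors aligned reads to GRCh37 with HISAT2 2.0.4 and counted them per gene with HTSeq on its default settings. The HTSeq version was 0.11.2 in the submitters' processing notes, while the study's methods name another version. The counts were deposited after a filter on low expression. The values are whole numbers with unequal library totals, so they were treated as raw counts. Whether the library kit kept strand was not given in the sources used here. No column was left unmapped.

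The counts were scaled by TMM and tested with edgeR 4.0.16 (limma 3.58.1, R 4.3.3) by the quasi-likelihood test over all 20705 genes, with Benjamini-Hochberg adjustment and a threshold of 0.05. CHL1 comparisons used the 8 CHL1 libraries, A375 comparisons the 10 A375 libraries, and comparisons between the lines all 18. Library sizes were 16213475 to 37424081 counts. CPM used TMM factors over the 18 libraries, and CPM per kb the length of the canonical transcript. GC content came from the longest transcript in GENCODE 44 mapped to GRCh37, matched for 16356 genes, and the GC correction subtracted a loess trend (span 0.4) from each library through offsets. Promoters are from RefSeq on GRCh38.p14 and were used for their letters only. DESeq2 1.42.0, other scalings, filters, library subsets and a replicate block were the alternatives. On data simulated for the CHL1 comparison of CDK4/6i at 72 hours (20705 genes), 62 of 100 genes changed by 1 on the log2 scale and 99 of 100 changed by 2 were recovered, and 13 unchanged genes were called.

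All 10 members are named. From each other list at most 3 called genes with the largest absolute log2 fold change and a mean of at least 1 CPM were named per comparison, with isozyme partners added. TXNIP in CHL1 under PRMT5i was named after its value was seen. The members and lists were chosen with earlier results of these data known. The labels do not say whether replicates came from separate cultures, so p-values measure the spread between these libraries, which may be technical, and the A375 replicates of 6 days were numbered in accession order.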

Additional observations from a re-analysis of the deposited data

Results flagged for a closer look

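The response to PRMT5i at 72 hours differed between the lines for 9 members by the interaction term of the edgeR fit over 18 libraries. The difference, CHL1 minus A375 on the log2 scale, was -1.86 for ALDOA, -1.74 for ENO1, -1.58 for TPI1, -1.47 for PKM, -1.44 for GPI, -1.36 for HK1, -1.30 for PFKP, -1.21 for HK2 and -0.97 for PGK1. The CHL1 PRMT5i libraries carried a GC trend of -2.89 and -2.22, against 0.14 and 0.24 in A375 PRMT5i, and with the GC correction ALDOA stood at -1.09, ENO1 at -1.11 and PGK1 at -1.45, while TPI1 (-0.54), PKM (-0.78) and PFKP (-0.50) no longer passed the test. The part of the trend in the difference was not tested.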

How the results depend on the processing

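DESeq2 called as many members as edgeR in all 11 comparisons. Shares in parentheses are those of all genes called in the same fit. In CHL1, 3 members (20.3%) passed at 72 hours of CDK4/6i when only the 2 compared groups were fitted, against 0 (4.98%) in the full fit, and 5 (28.8%) at 6 days with the GC correction, against 3 (16.6%). In A375 at 6 days of CDK4/6i the count of 7 (43.1%) became 2 (36.6%) with the GC correction and 2 (28.3%) with only the compared groups. Against the control of 72 hours 4 (31.2%) were called, all downward. In A375 under PRMT5i 1 (8.99%) passed with only the compared groups and 2 (15.8%) with the 6 libraries of 72 hours alone. The line difference fell from 10 (58.9%) to 1 (61%) with the A375 control of 6 days. The A375 response of 6 days minus 72 hours called 6 (23.2%), with reversed direction, when the 72-hour control was used for both times. With TMM denominators the share of counts on the members was 0.216% in CHL1 PRMT5i and 1.17% in A375 PRMT5i. The causes were not tested.

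Against the A375 control of 72 hours, the 6-day values reversed to -0.76 for ALDOA, -1.06 for ENO1, -0.31 for GPI, -0.32 for HK2, -0.68 for LDHA, -0.93 for PFKP, -0.37 for PGK1, -0.50 for PKM and -0.51 for TPI1, and the change of response to -1.08 for ALDOA, -0.73 for ENO1, -0.87 for PFKP, -0.63 for PGK1, -0.77 for PKM and -0.72 for TPI1. With the A375 control of 6 days, the line difference reversed to 0.37 for ALDOA, 0.25 for ENO1, 0.24 for HK2, 0.055 for LDHA and 0.29 for PGK1.

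Leaving out each library in turn left its group without a replicate. The count of called members then changed in CHL1 at 6 days and under PRMT5i, and in A375 at 6 days. It also changed for the line difference, the A375 change of response and the PRMT5i difference between lines. In the other 5 comparisons the count did not change. The share of all genes called moved as well in these fits, and whether the members moved more than all genes was not tested.

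No source states that the replicate numbers mark a shared culture or day. Deviations of same-numbered libraries correlated at -0.31 to 0.42 over pairs of groups in CHL1, and at 0.19, 0.22 and 0.42 over the 3 pairs of A375 groups of 72 hours. With the replicate block, A375 cells given CDK4/6i over 72 hours had 6 called members (42.3% of all genes), and those given PRMT5i had 5 (29.5%). The block and the GC correction together called 1 in CHL1 at 72 hours (14.9%), 5 at 6 days (30.4%), 2 in A375 at 72 hours (45.5%) and 3 under PRMT5i (31.9%). The block alone left the CHL1 counts at 0, 3 and 9.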
